A study of Sus scrofa with 36 samples.

Results

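AQP3 encodes aquaporin 3, a membrane channel for water and glycerol, and its RNA level was followed here across the hippocampus of 36 male piglets of a Landrace by Large White cross. The annotation of the porcine array gave the symbol AQP3 to 1 of 23999 probe sets (124 array controls not counted), and AQP3 is 1 of 6765 genes that have a probe set naming them alone. The gene was picked for its wide spread over these arrays, so that spread is described without a test. The piglets formed 3 feeding groups of 12, with 1 array each. Control piglets received a milk replacer whose basal lactoferrin content the labels do not quantify. Medium-dose piglets received the replacer with 0.6 g/L of added lactoferrin, an iron-binding glycoprotein of milk, and high-dose piglets received it with 1.2 g/L. All were housed from day 3 of life, taken here as the first day of feeding, and all hippocampi were sampled at day 38. The labels do not say which portion of the hippocampus was taken or name the individual animals, so p-values measure the spread between these samples. The sample descriptions also start with a code, here called the set code, with 5 values from S1 to S5; what it stands for is not stated in the labels, and no medium-dose sample has S1.

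Aquaporins are tetramers of water channels. AQP3 belongs to the aquaglyceroporins, the branch of the family that also passes glycerol, and is best known from the basolateral membrane of the kidney collecting duct, from the basal layer of the epidermis and from red blood cells of several species. In brain the water channels described most are AQP4, in the endfeet of astrocytes, and AQP1, in the epithelium of the choroid plexus. In a whole piece of tissue, fewer cells of a type and less RNA per cell cannot be told apart.

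The deposited values are log2 signals rounded to 1 decimal, so 1 unit is a factor of 2 and the smallest step is 0.1. Array medians lay between 6.6 and 6.7 and no 2 arrays held identical values. The 3 arrays with the lowest mean correlation with the others were high-dose replicate 2, control replicate 10 and control replicate 4, at AQP3 levels of 9.1, 8.8 and 10.2. Neuron transcripts were high, with SNAP25, a protein of synaptic vesicle fusion, between 12.3 and 13.3 in the 36 arrays. The astrocyte filament gene GFAP lay between 12.3 and 13.6.

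AQP3 had a mean level of 9.63 ± 1.17 (SD, n = 36), a median of 10 and a range of 6.2 to 11.4, which is 36.8-fold between the lowest and the highest array. Its SD was the tenth largest on the array, with 9 probe sets above it, and the median SD of all probe sets was 0.171. Of those 9 probe sets, 5 named 1 gene, and these were RSAD2, GBP1, PLAC8, SAL1 and IFIT1. RSAD2, GBP1 and IFIT1 are interferon-induced genes. Among the 1772 probe sets whose mean lay within 0.5 of that of AQP3, the median SD was 0.163 and the highest 0.943, so no other probe set of that brightness spread as widely.

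The levels ran as a continuum with 1 array apart. In all, 19 of 36 arrays had a level of 10 or above and 10 had a level below 9. The lowest array, medium-dose replicate 11 at 6.2, was 1.5 below the next, high-dose replicate 11 at 7.7, and the next largest gap between neighbouring levels was 0.5. The mean correlation of that lowest array with the other arrays was 0.991, in a range of 0.980 to 0.993. Such a value over all probe sets cannot show whether single genes were unusual in it. The highest levels, 11.4, were those of medium-dose replicates 6 and 9, so the medium-dose group held both ends of the distribution.

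**Figure D1:**
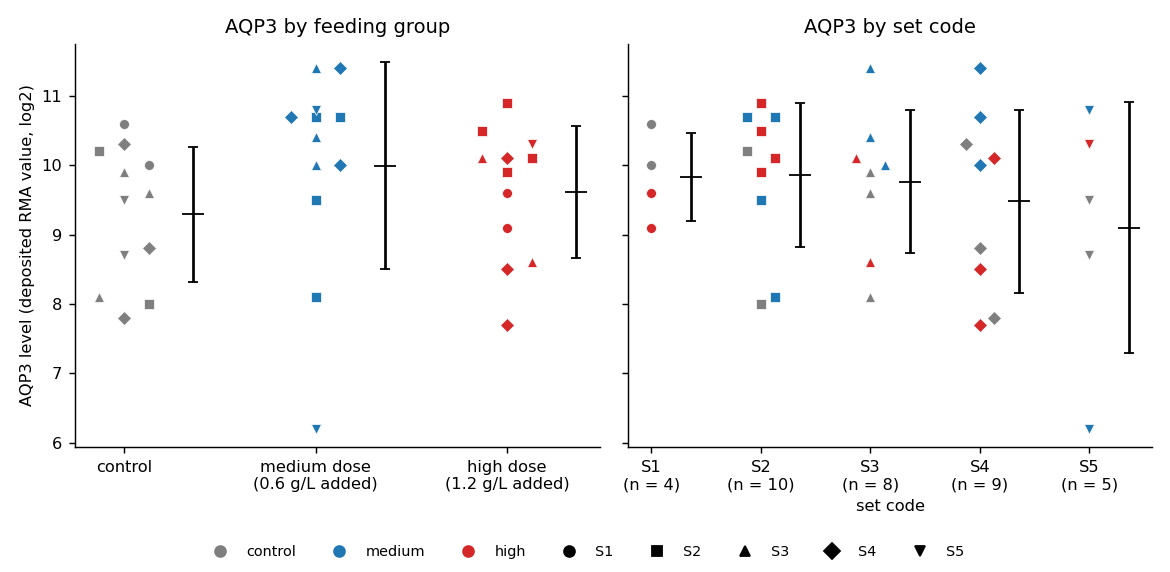
AQP3 level (log2 of the deposited signal, y axis) of each of the 36 arrays by feeding group (left) and by set code (right). Colours mark feeding groups, symbols mark set codes, and bars beside the points give the mean ± SD. The groups overlap, and the array at 6.2 is medium-dose replicate 11.

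AQP3 levels overlapped widely between feeding groups. Control arrays had levels of 7.8 (lowest), 9.55 (median) and 10.6 (highest), with a mean of 9.29 ± 0.98 (SD, n = 12). Medium-dose arrays had 6.2, 10.55 and 11.4, with a mean of 9.99 ± 1.49, and high-dose arrays had 7.7, 10 and 10.9, with a mean of 9.62 ± 0.95. The middle of the medium-dose group thus sat higher than that of the others, while its lowest array was the lowest of all. Of 12 medium-dose arrays, 9 lay above the control median, 6 above the highest control and 1 below the lowest control. Of 12 high-dose arrays, 8 lay above the control median, 1 above the highest control and 1 below the lowest.

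None of these differences passed the test. The linear model had feeding group and set code as terms, and p-values from limma were adjusted over the 18006 probe sets tested. Medium dose minus control was 0.74 (SE 0.47, 95% interval -0.22 to 1.70, limma p = 0.127, adjusted p = 0.816). High dose minus control was 0.26 (SE 0.47, interval -0.68 to 1.21, limma p = 0.576, adjusted p = 0.985), and high minus medium dose was -0.48 (SE 0.47, interval -1.43 to 0.48, limma p = 0.320, adjusted p = 0.866). Permuting the labels within set codes gave two-sided p = 0.170, 0.598 and 0.363 for these 3 contrasts in that order. Across the whole array no probe set passed the adjusted threshold of 0.05 in any of the 3 contrasts (0% called). At an unadjusted limma p under 0.05 there were 1248 probe sets (6.93%) for medium dose minus control, 889 (4.94%) for high dose minus control and 1076 (5.98%) for high minus medium dose.

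A single array decided the size of the medium-dose difference. Without medium-dose replicate 11, medium dose minus control was 1.13 (SE 0.40, limma p = 0.0081, adjusted p = 0.440), and the F test of any difference between feeding groups had limma p = 0.0249 (adjusted p = 0.657), against p = 0.298 (adjusted p = 0.887) with it. It still did not pass the adjusted threshold.

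Within set codes the feeding groups kept no single order. Medium-dose arrays averaged 9.75 in S2, 10.6 in S3 and 10.7 in S4, against 9.1, 9.2 and 8.97 in control arrays of the same sets. In S5, which held medium-dose replicate 11, the medium-dose mean was 8.5 and the control mean 9.1, from 2 arrays each. High-dose arrays averaged 10.35 in S2 and 10.3 in S5, above the control means of 9.1 in both sets. They averaged 9.35 in S1 and 8.77 in S4, below the control means of 10.3 and 8.97, and in S3 9.35 against 9.2. With 1 to 4 arrays per group and set these means rest on few samples. The interaction of feeding group and set code over the 32 arrays of S2 to S5 gave F = 1.46 (limma p = 0.234, adjusted p = 0.746), where 3 probe sets of the whole array were called (0.0167%).

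Set codes overlapped as widely as feeding groups. AQP3 averaged 9.83 ± 0.63 in S1 (n = 4), 9.86 ± 1.04 in S2 (n = 10), 9.76 ± 1.03 in S3 (n = 8), 9.48 ± 1.32 in S4 (n = 9) and 9.10 ± 1.81 in S5 (n = 5). Gaps between sets next to each other in level were smaller than the SDs within sets. The F test of set codes gave limma p = 0.718 and adjusted p = 0.881, where 472 probe sets of the whole array were called (2.62%). Feeding group alone held 6.16% of the sum of squares of AQP3, set code alone 5.09%, and both together 11.7%, which left a residual SD of 1.21.

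No measure of array quality passed a test against AQP3 over the 36 arrays. AQP3 averaged 9.75 ± 1.23 in the 26 arrays in which the polyadenylated spike-in control Dap was present (log2 above 6) and 9.32 ± 0.98 in the 10 arrays in which it was absent. Over 36 arrays Pearson r with AQP3 was 0.242 for the mean correlation with other arrays, 0.264 and 0.207 for the difference between 3′ and 5′ probe sets of actin and GAPDH, -0.188 for the hybridisation control bioB and 0.197 for Dap. None of these 5 relations passed by permutation, with p between 0.118 and 0.270 and adjusted p = 0.270 for each r. Spearman rho lay between -0.211 and 0.283, with adjusted p from 0.359 to 0.399. Without the 2 arrays farthest from the median of each measure, r lay between -0.194 and 0.373. Within the 10 arrays without Dap, r ran from -0.267 for Dap to 0.714 for the actin difference. Within the 26 arrays with Dap it ran from -0.203 for bioB to 0.375 for the GAPDH difference. The r values within these subsets were not tested.

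Which other transcripts rose and fell with AQP3 from piglet to piglet was asked by adding the AQP3 level to the model as a covariate, beside feeding group and set code. Of 18005 other probe sets, 196 had a slope on AQP3 at a limma adjusted p under 0.05 (1.09%), of which 152 were positive (0.844%) and 44 negative (0.244%). At an unadjusted limma p under 0.05 there were 2780, of which 1488 were positive. The 85 called probe sets that named 1 gene named 78 genes, 56 with a positive and 22 with a negative slope. Likeness to AQP3 was measured by Pearson r over the 36 arrays, which ran from -0.722 to 0.859 over all probe sets, with a median of -0.02. Of the 27 probe sets with r above 0.7, 18 did not name exactly 1 gene in the annotation, among them the highest.

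RERG, a small GTPase of the RAS family first known as estrogen-regulated, had the highest r among probe sets that named 1 gene. Its level was 4.6, 5.45 and 6.6 in control arrays (lowest, median, highest), 4.2, 6.1 and 6.9 in medium-dose arrays and 4.3, 5.55 and 6.1 in high-dose arrays. Its lowest level, 4.2, stood in the array with the lowest AQP3, and its highest, 6.9, in 1 of the 2 arrays with the highest AQP3. RERG had r = 0.825 and Spearman rho = 0.791, and it changed by 0.48 per unit of AQP3 (SE 0.05, limma adjusted p = 1e-06), or 1.39-fold for each doubling of the AQP3 signal.

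PTH1R and TGFA, a receptor and a ligand, followed. PTH1R is the receptor for parathyroid hormone and its related peptide. It ran from 6.7 to 8.0 in control, 6.9 to 8.6 in medium-dose and 6.6 to 8.2 in high-dose arrays (medians 7.4, 8.05 and 7.45), with r = 0.756, rho = 0.739 and a slope of 0.34 (SE 0.04, limma adjusted p = 1.3e-05). TGFA, transforming growth factor alpha, is a ligand of the epidermal growth factor receptor. It ran from 6.4 to 7.2 in control, 6.0 to 7.4 in medium-dose and 6.2 to 6.9 in high-dose arrays, with r = 0.771, rho = 0.720 and a slope of 0.19 (SE 0.03, limma adjusted p = 6.9e-05). The lowest TGFA level stood in the array with the lowest AQP3.

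MCUR1, a regulator of the mitochondrial calcium uniporter, had r = 0.752 and the highest rank correlation of these genes, rho = 0.832. Its levels were 7.3, 7.75 and 8.4 in control arrays (lowest, median, highest), 7.5, 8.2 and 9.0 in medium-dose arrays and 7.3, 8.0 and 8.3 in high-dose arrays. In the array with the lowest AQP3 its level was 7.8, and 11 arrays lay below that, so MCUR1 did not follow AQP3 to its lowest point. The slope was 0.22 (SE 0.03, limma adjusted p = 0.00029). Without the 2 arrays farthest from the AQP3 median its r was 0.820.

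The next genes in r were slightly less close. CHGB, chromogranin B of dense-core vesicles, had r = 0.746 and a slope of 0.22 (SE 0.03, limma adjusted p = 0.00055). KCNIP2, an accessory subunit of voltage-gated potassium channels, had r = 0.724, and NRN1, the neurite growth protein neuritin, r = 0.699. KLC1, a light chain of the kinesin motor, had r = 0.729 with a small slope of 0.07, since its level lay only between 6.9 and 7.3. MTHFD1L, a mitochondrial enzyme of folate metabolism, had r = 0.71, and TMEM19 r = 0.705. These 5 genes after CHGB passed at limma adjusted p between 0.00091 and 0.014. Without medium-dose replicate 11, MTHFD1L alone of these 5 still passed (limma adjusted p = 0.034). For KLC1, TMEM19 and NRN1 a second probe set of the gene had lower r values of 0.235, 0.150 and 0.407.

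BDNF, the brain-derived neurotrophic factor, was among the transcripts that rose with AQP3. Its levels were 8.4, 8.8 and 9.3 in control arrays (lowest, median, highest), 8.4, 9.25 and 9.6 in medium-dose arrays and 8.1, 9.05 and 9.3 in high-dose arrays. Its r was 0.686, its rho 0.707 and its slope 0.20 (SE 0.04, limma adjusted p = 0.002). By group r was 0.115 in control, 0.943 in medium-dose and 0.646 in high-dose arrays, and whether these differ was not tested.

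Genes with several probe sets that moved together were looked up after their values had been seen. All 3 probe sets of SKAP2, an adaptor of Src kinase signalling, passed with r of 0.619 to 0.691. Both probe sets of SPOCK3, a brain proteoglycan of the testican family, passed with r of 0.641 and 0.699, and both of RCAN3, a regulator of calcineurin, with 0.632 and 0.688. Of the 2 tested probe sets of LCP1, an actin-bundling protein, 1 passed with r = 0.650 and the other had r = -0.236. Its 3 further probe sets were too dim to be tested. Within control arrays the SPOCK3 probe sets had r of -0.111 and -0.056, against 0.939 and 0.952 within medium-dose arrays. Within S2 the SKAP2 probe sets had r of 0.037 to 0.225. Without medium-dose replicate 11 no probe set of SKAP2 or SPOCK3 passed, while 1 each of RCAN3 and LCP1 did.

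**Figure D2:**
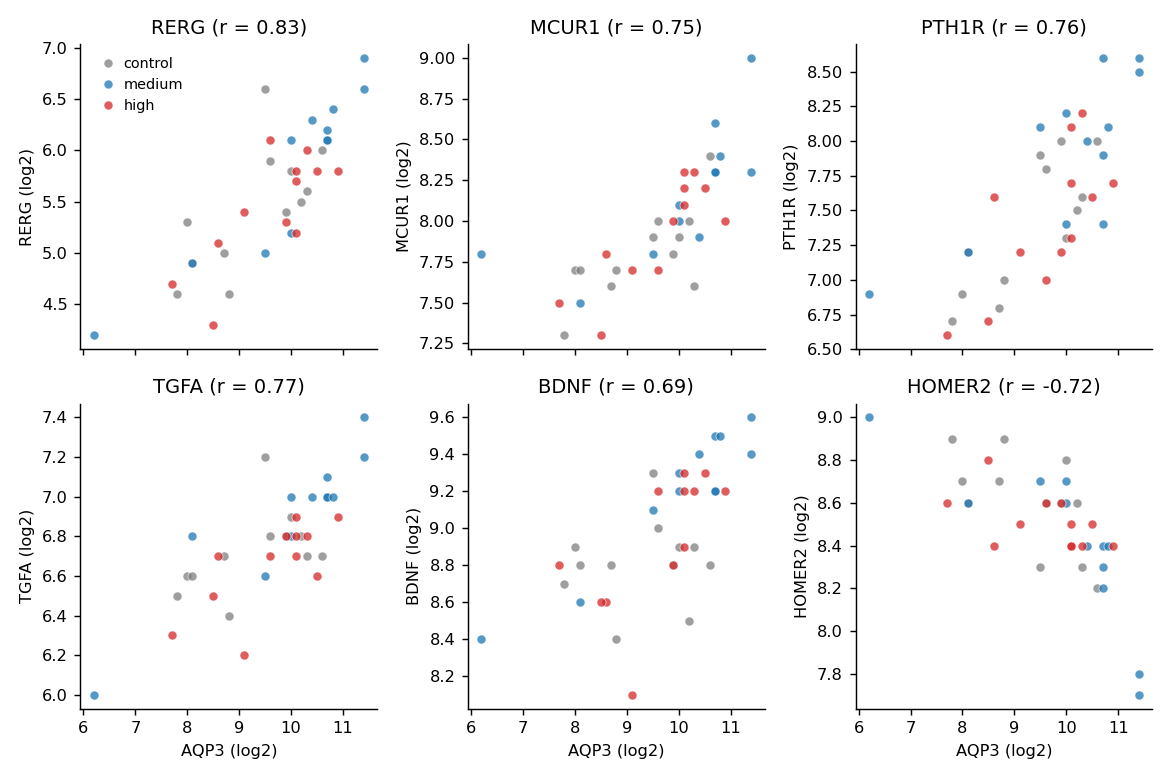
Level of 6 genes (y axes, log2) against AQP3 (x axis, log2), 1 point per array, coloured by feeding group, with Pearson r over 36 arrays. RERG, MCUR1, PTH1R, TGFA and BDNF are higher where AQP3 is higher and HOMER2 is lower; in the array at AQP3 6.2, RERG and TGFA are at their lowest while MCUR1 is not.

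In the opposite direction HOMER2, a scaffold protein of the postsynaptic density, stood first. Its levels were 8.2, 8.6 and 8.9 in control arrays (lowest, median, highest), 7.7, 8.4 and 9.0 in medium-dose arrays and 8.4, 8.5 and 8.8 in high-dose arrays. The array with the lowest AQP3 had the highest HOMER2 level, 9.0, and the 2 arrays with the highest AQP3 had 7.8 and 7.7, the lowest. HOMER2 had r = -0.722, rho = -0.750 and a slope of -0.16 (SE 0.03, limma adjusted p = 0.003), and its other 2 probe sets passed as well, with r of -0.704 and -0.619.

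The remaining genes of lowest r had slopes from -0.25 per unit of AQP3 (C13H21orf62) to -0.08 (HDAC5). SMPD2, a neutral sphingomyelinase, had r = -0.634, TAP1, a peptide transporter of antigen presentation, -0.625, and CCDC181 -0.610. FXYD6, a modulator of the sodium pump, had r = -0.597, and ESAM, an adhesion molecule of endothelial cells, -0.595. HDAC5, a histone deacetylase, had -0.584, C13H21orf62 -0.584 and FOXP1, a transcription factor, -0.580. These 8 passed at limma adjusted p between 0.007 and 0.045. CD55, an inhibitor of complement, had r = -0.585 in the probe set nearest to AQP3, which did not pass (limma adjusted p = 0.068), while another of its probe sets did, with r = -0.563. For TAP1 and ESAM the other 2 probe sets of each gene had r of -0.267 to -0.036 and -0.437 to -0.028.

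**Figure D3:**
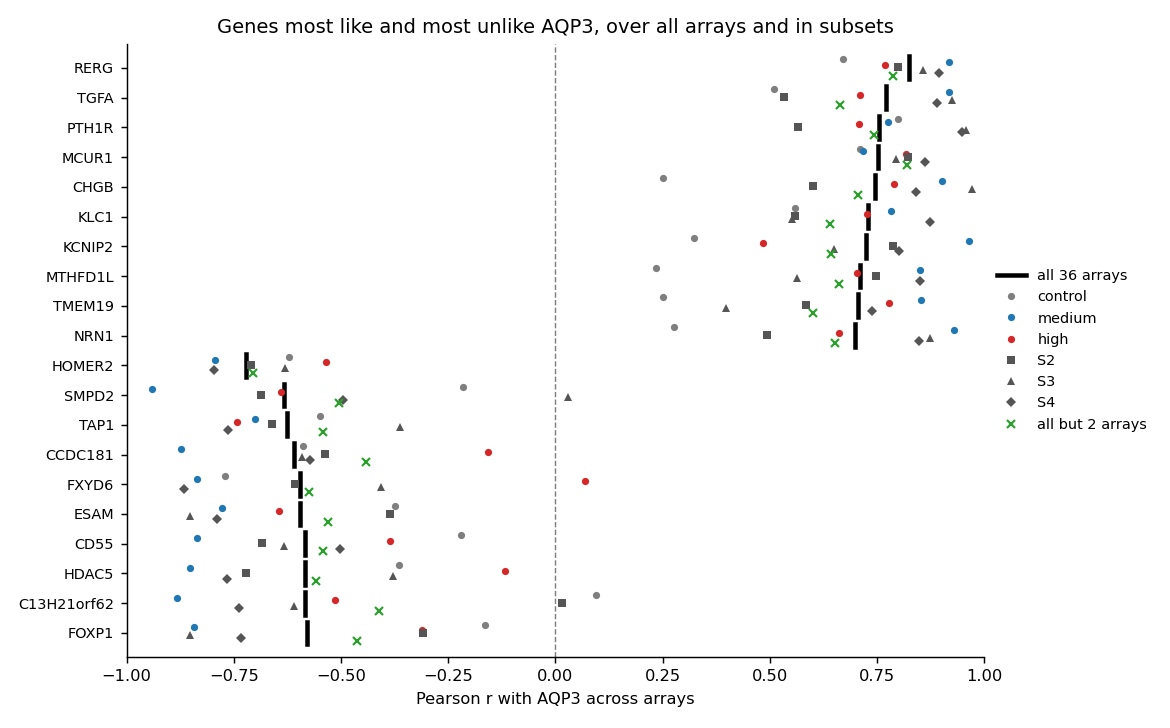
Pearson r with AQP3 (x axis) for the 10 named genes of highest and the 10 of lowest r. Black ticks give r over 36 arrays, coloured points r within each feeding group (12 arrays each), grey symbols r within S2, S3 and S4 (10, 8 and 9 arrays), and crosses r without the 2 arrays farthest from the AQP3 median. The upper 10 genes lie right of 0 in every subset drawn, and the lowest of their values, down to 0.234, is one of the control group.

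The direction of these relations held in subsets for the 10 genes of highest r, and turned for some of the 10 genes of lowest r. Each of the 10 genes of highest r had r above 0 within each feeding group, within S2, S3 and S4, and in arrays with and without the spike-in control. Their r lay between 0.234 and 0.799 within control arrays, 0.717 and 0.965 within medium-dose arrays and 0.483 and 0.818 within high-dose arrays. The 10 genes were picked on all arrays, so a positive r in most subsets follows in part from that choice. Of the 10 genes of lowest r, 9 or 10 were below 0 in each of these subsets. The exceptions were C13H21orf62 in control arrays (r = 0.095) and in S2 (0.015), FXYD6 in high-dose arrays (0.068), SMPD2 in S3 (0.030) and FOXP1 in arrays without the spike-in control (0.080).

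The array with the lowest AQP3 carried much of the count. Without medium-dose replicate 11, 44 probe sets passed, 41 with a positive and 3 with a negative slope. Named genes that passed both with and without it were MCUR1, RERG, PTH1R, FABP3, LCP1, CHGB, TGFA, MTHFD1L, MFSD4A, VAMP7, REEP5 and RCAN3, and CPA1 passed only without it, with a negative slope. HOMER2 then had a slope of -0.16 (limma adjusted p = 0.062), ESAM -0.11 (adjusted p = 0.071), NRN1 0.18 (adjusted p = 0.062) and KCNIP2 0.16 (adjusted p = 0.081). BDNF had a slope of 0.18 (adjusted p = 0.083) and did not pass either. The count also moved by more than 1.5 times without control replicate 3 (425 probe sets), medium-dose replicate 1 (88) and medium-dose replicate 9 (108).

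Without the 2 arrays farthest from the AQP3 median, medium-dose replicate 11 and high-dose replicate 11, 26 probe sets passed. Of these, 25 were among the 196, which is 96.2% of the shorter and 12.8% of the longer list. The 9 genes they named were RERG, PTH1R, MCUR1, LCP1, FABP3, MFSD4A, VAMP7, EFEMP2 and PKDCC. FABP3 is a fatty acid binding protein and VAMP7 a protein of vesicle fusion. All 196 kept the sign of their slope in that fit. Within the control and high-dose groups alone, 12 arrays each, limma called 0 probe sets, with 1280 and 399 at unadjusted p under 0.05. Of the 196 probe sets, 181 had a slope of the same sign within the control group, 196 within the medium-dose group and 194 within the high-dose group. The 196 were picked on all arrays, so the same sign in fits to part of these arrays follows in part from that choice. Within the medium-dose group alone limma called 157, and 12 without medium-dose replicate 11. A difference between groups in these slopes was not tested. In 12 probe sets, naming the genes LCP1, MCUR1, PTH1R and RERG, the slope passed in every fit over all 3 feeding groups in which the probe set was tested, the fits that left out 1 array or 1 set code included.

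**Figure D4:**
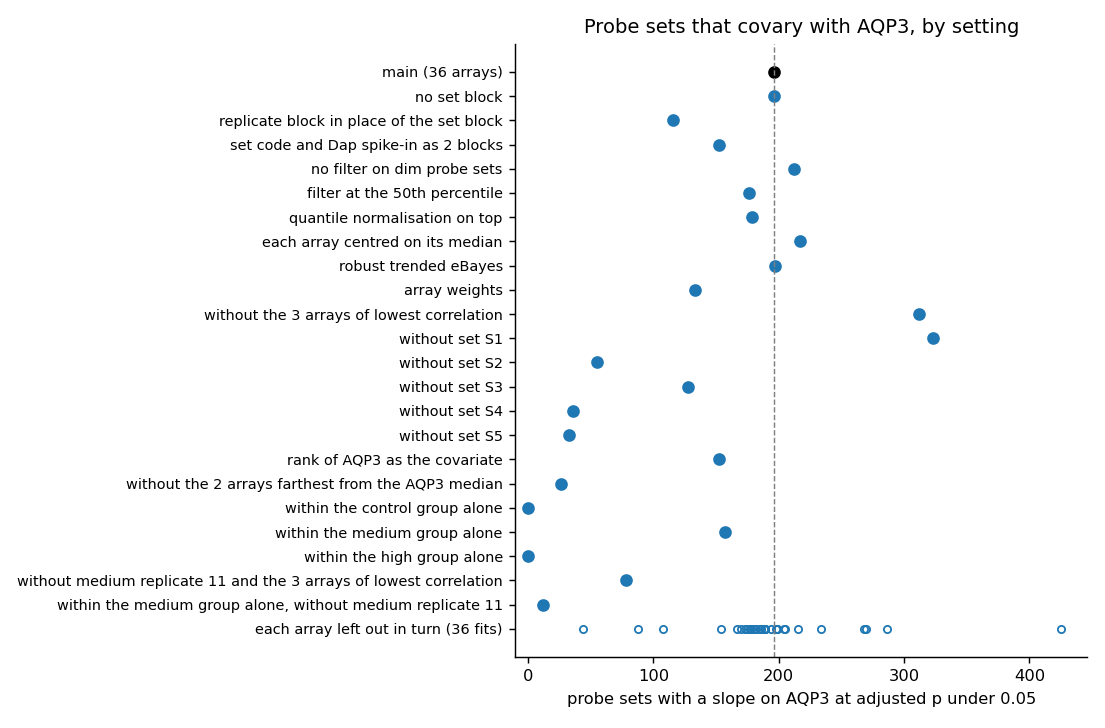
Number of probe sets whose slope on AQP3 passed an adjusted p of 0.05 (x axis) under each way of fitting (rows). The black point and dashed line give 196 for all 36 arrays, and open points in the bottom row give the 36 fits that left out 1 array each, from 44 to 425.

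The gene lists described next take the probe set of highest mean for each gene. Over all probe sets tested, 1.09% were called, a share at which a list of up to 19 genes holds few or no called members, so counts of 0 say little about a list. No other water channel passed the test. AQP1, with 2 probe sets, AQP5, AQP8 and AQP11, the only other aquaporins with a probe set of their own name here, had r between -0.253 and 0.129, and 0 of 4 genes passed. The spread of each was also smaller: AQP11, an intracellular aquaporin, lay between 8.2 and 8.9, AQP8 between 4.7 and 5.3, AQP5 between 4.8 and 5.5, and the brighter AQP1 probe set between 6.1 and 6.5. The means of AQP5 and AQP8, 5.04 and 5.08, lay just above the limit for dim probe sets (log2 4.92), where a narrow range says little. AQP4 was not analysed here. Genes of glycerol and triglyceride metabolism had 0 of 12 tested members called and a median r of 0.08, with MGLL, the monoglyceride lipase, at 0.377 and GPAM, an acyltransferase of glycerolipid synthesis, at -0.308. Genes of osmotic response had 0 of 7 called and a median r of 0.00, with LRRC8A, a subunit of the volume-regulated anion channel, at -0.288. Over all probe sets tested the median r was -0.02 and 46.8% had r above 0.

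Marker genes of cell types that a hippocampal sample can hold were tested in the same fit, and the share called over all probe sets, 1.09%, stands beside their counts too. Choroid plexus genes had 0 of 9 tested members called and a median r of -0.14. TTR, the transthyretin of the choroid plexus, ranged from 5.0 to 8.2 over the arrays and had r = -0.02. Meningeal and fibroblast genes had 0 of 12 called and a median r of -0.08, epithelial genes 0 of 8 and a median of 0.00, and erythrocyte genes 0 of 8 and a median of -0.05. HBB, the beta chain of haemoglobin, had r = 0.411 and did not pass (limma adjusted p = 0.163). The 2 ependymal genes tested, CAPS and CFAP126, had r of -0.458 and -0.358, and neither passed.

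Among markers of vascular and immune cells, 1 passed. Endothelial and mural genes had 1 of 19 called, ESAM, beside 1.09% of all probe sets, and a median r of -0.10. The call of ESAM was lost without medium-dose replicate 11. Microglial genes had 0 of 8 called and a median of -0.08, and lymphocyte genes 0 of 7 and a median of -0.05. The list means of these 3 groups had r with AQP3 of -0.116, -0.118 and -0.080 over the 36 arrays.

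The medians of the astrocyte and neuron lists lay on opposite sides of 0, with no member called. Astrocyte genes had 0 of 12 called and a median r of -0.10; SLC1A3, a glutamate transporter, had -0.450, S100B -0.387 and APOE -0.346, while 4 of the 12 had r above 0, the highest being SLC1A2, another glutamate transporter, at 0.237. Neuron genes had 0 of 10 called and a median r of 0.14, with STMN2, the neuronal stathmin, at 0.532 (limma adjusted p = 0.073) and SYN1, synapsin 1, at 0.322. By group the r of STMN2 was -0.303 in control, 0.842 in medium-dose and 0.539 in high-dose arrays. Oligodendrocyte and myelin genes had 0 of 15 called and a median r of -0.02, by the brightest probe set of each gene. Of MBP, the myelin basic protein gene, 2 dimmer probe sets passed (r of 0.605 and 0.634), while its brightest had r = -0.091. Both calls were lost without medium-dose replicate 11. The array means of the neuron list lay between 10.95 and 11.55 in control, 10.99 and 11.53 in medium-dose and 10.52 and 11.68 in high-dose arrays. Their part in the relations above was not tested.

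Of the genes listed for hippocampal subfields (21) and for neighbouring brain regions (18), 7 of each list were tested and none passed. Subfield genes had 0 of 7 called and a median r of -0.13. NEUROD1, a transcription factor of granule cells, had r = 0.483 (limma adjusted p = 0.156), and MEIS2 and POU3F1, also transcription factors, had -0.513 and -0.432. By group the r of NEUROD1 was -0.230 in control, 0.848 in medium-dose and 0.433 in high-dose arrays. Genes of neighbouring regions had 0 of 7 called and a median r of -0.21, and the mean of these 7 genes had r = -0.508 with AQP3. That mean lay between 6.57 and 7 in control, 6.54 and 6.93 in medium-dose and 6.51 and 6.96 in high-dose arrays. OXT and TRH, the precursors of oxytocin and thyrotropin-releasing hormone, had r of -0.449 and -0.395. The part of these genes in the relations of AQP3 was not tested either.

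Among 12 activity-regulated immediate early genes, BDNF alone passed, beside 1.09% of all probe sets, and it did not pass without medium-dose replicate 11 (limma adjusted p = 0.083). NR4A3, a nuclear receptor, had r = 0.5 (limma adjusted p = 0.122), while FOS and EGR1, transcription factors induced within minutes of neuronal activity, had r of 0.03 and -0.03. The median r of the list was -0.04.

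**Figure D5:**
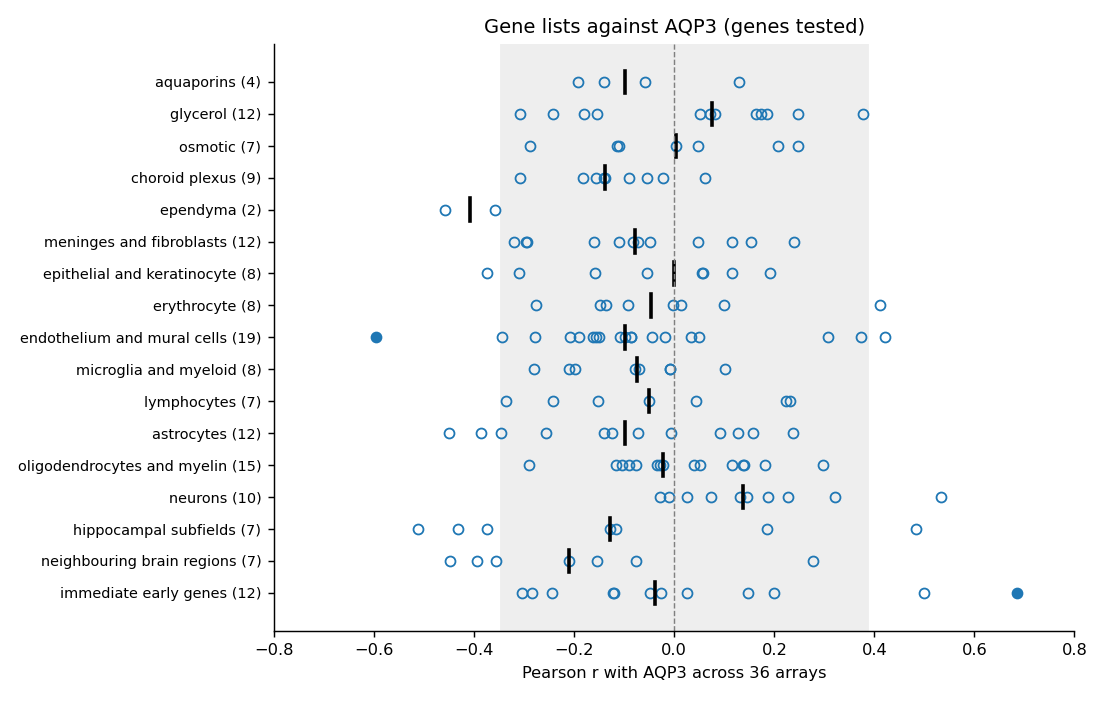
Pearson r with AQP3 over 36 arrays (x axis) for the tested members of each gene list (rows, number tested in brackets). Filled points passed the adjusted threshold, black ticks are list medians, and the grey band holds the middle of all tested probe sets, from r of -0.346 (5th percentile) to 0.388 (95th percentile). The filled points are ESAM and BDNF.

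None of the genes next to AQP3 in the genome passed. In the RefSeq annotation of pig assembly Sscrofa11.1, used here for gene order only, the 5 nearest genes with a probe set on each side were NOL6, UBE2R2, DCAF12, NUDT2 and FAM219A, and CHMP5, BAG1, SPINK4, B4GALT1 and DNAJA1. Of their 15 probe sets 14 were tested and 0 passed. Their r ran from -0.317 for B4GALT1, a galactosyltransferase, to 0.495 for UBE2R2, a ubiquitin-conjugating enzyme (limma adjusted p = 0.214), with a median of -0.03.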

How the data were processed

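Total RNA of 36 hippocampi was hybridised to Affymetrix porcine arrays. The deposited values are log2 signals per probe set. Per the submitters' processing notes the authors used Affymetrix Expression Console 1.1 and RMA, which removes background, gives all arrays 1 distribution and summarises each set's probes, so values are relative. Precision is set by how many arrays there were.

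The 2016 array annotation gave 1 symbol to 10069 of 23999 probe sets, several to 198 and none to 13732; 9961 matched RefSeq by gene ID. The 18006 probe sets tested were those, besides controls, whose mean reached the 25th percentile of all (log2 4.92). Models were fitted in R 4.3.3 with limma 3.58.1 (eBayes, two-sided, Benjamini-Hochberg, threshold 0.05), with set code as a fixed block, and tested on simulated data. Permutations used 100000 resamples.

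AQP3 and the gene lists were chosen with earlier results of these data known. Named genes are the aquaporins, the 10 highest and 10 lowest r (the probe set of largest absolute r), up to 3 members per list (the brightest probe set) and 5 neighbours on each side. Others named were picked after their values were seen. Alternatives were other blocks, filters, normalisations and weights, and arrays, set codes or groups left out.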

Additional observations from a re-analysis of the deposited data

How the results depend on the processing

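Over 17 other settings medium dose minus control lay between 0.37 and 1.03, and over the 36 fits without 1 array between 0.55 and 1.13; its adjusted p was 0.440 or higher throughout. High dose minus control lay between -0.14 and 0.51, or 0.08 and 0.44 without 1 array. It was below 0 without S2 (-0.14) and above 0 in the others. High minus medium dose was above 0 without S4 (0.051) and otherwise lay down to -1.06, or between -0.79 and -0.30 without 1 array. The F value ranged from 0.37 to 3.02 for feeding groups (0.73 to 4.14 without 1 array) and from 0.44 to 0.84 for set codes (0.38 to 0.90). The number of probe sets that covaried with AQP3, 196, moved most. It was 312 without the 3 arrays of lowest correlation and 323, 55, 128, 36 and 33 without S1, S2, S3, S4 and S5. It was 26 without the 2 arrays farthest from the AQP3 median, 0 within the control group and 0 within the high-dose group. In fits added after the data had been seen, it was 78 without medium-dose replicate 11 and the 3 arrays of lowest correlation, and 12 within the medium-dose group without replicate 11. Fits without 1 array gave 44 to 425, and the other settings, within 1.5 times of 196, gave 133 to 217. The cause of these shifts was not tested. When the replicate number of the titles served as a replicate block and the set code was dropped, 116 passed, 99 of them among the 196, and medium dose minus control was 0.70. Same-numbered samples of different groups did not deviate together (mean correlation -0.01 over 36 pairs, from -0.447 to 0.306), so the numbers were not taken as pairs. The slope of C13H21orf62 was 0.0059 within the control group and below 0 in every other fit, and that of FXYD6 was 0 within the high-dose group and below 0 in the others. With 1 AQP3 probe set, the alternative of another probe set was not run. Values rounded to 0.1 limit what can be seen of genes with a narrow range, such as KLC1.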

Other observations

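The interferon-induced genes that shared the top of the ranking by spread had r below 0 with AQP3, as a description. RSAD2, GBP1, IFIT1 (its more variable probe set) and ISG15 had r with AQP3 of -0.319, -0.296, -0.239 and -0.316 and Spearman rho of -0.217, -0.179, -0.083 and -0.166 over 36 arrays. USP18 and OAS1, of the same response, had r of -0.353 and -0.116, and rho of -0.297 and 0.067.

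Probe sets of MBP, the myelin basic protein gene, disagreed with each other, also in level. The brightest, between 14.3 and 14.9 on the log2 scale, had r = -0.091 with AQP3. Dimmer probe sets, from 8.3 to 10.2 and from 6.1 to 8.3, had r of 0.605 and 0.634, and their slopes on AQP3 passed (limma adjusted p = 0.026 and 0.019). In the array with the lowest AQP3 these levels were 8.3 and 6.1, the lowest of all 36 arrays for the first of them and tied for lowest for the second. Neither slope passed without that array. The cause of the disagreement was not tested.

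Other called genes, picked here after their values were seen, included SYN2, a synapsin of synaptic vesicles (r = 0.632), PFKP, a phosphofructokinase of glycolysis (r = 0.645), PGM1, phosphoglucomutase 1 (r = 0.639), STBD1, a glycogen-binding protein (r = 0.624), TGFB1, transforming growth factor beta 1 (r = 0.641) and ACVR1, a receptor of that family (r = 0.642). The genes just listed all had a positive slope. PGAM2, another enzyme of glycolysis, was called with a negative slope of -0.098 (r = -0.518). Neither PGAM2 nor any of the genes listed before it passed without medium-dose replicate 11. By group the r of PFKP was -0.146 in control, 0.886 in medium-dose and 0.713 in high-dose arrays. No test of a shared theme was made.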
